A study of Mus musculus with 7 samples.

Results

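Genes of the alternative complement pathway, its regulators and the receptors for its anaphylatoxins were compared in retinal pigment epithelium (RPE) from Mfrp rd6 mutant and wild-type mice. The genes were chosen by name, but with earlier results of these data known. They were Cfi, Cfb, Cfd, C3, C3ar1, C5ar1, Cd55, Cd46 and Serping1. Of these 9 genes, 7 were represented by a probe set annotated to exactly 1 symbol, among 19938 such genes in all. C3 and Cfd were not analysed here. The study put RNA from 7 RPE samples on 1 whole-transcript array each, 3 from Mfrp rd6 mutants and 4 from wild type, and both groups were on the C57Bl/6J background. Mfrp encodes a membrane protein of the RPE, and rd6 is a recessive, whole-body allele known from mice with retinal degeneration. The age field gives 12 weeks for every Mfrp rd6 sample and 8 weeks for every wild-type sample, and under it genotype and age cannot be told apart. The growth protocol gives 12 weeks for Mfrp rd6 replicate 1 alone and 8 weeks for the rest.

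The samples were pellets of cells shaken loose from eyecups after the cornea and lens had been removed, so other cells that came loose were measured with the RPE. In such bulk samples fewer cells of a type and less RNA per cell cannot be told apart. All 12 RPE markers tested, Rpe65 and Best1 among them, had a mean above the level described below as the floor. The mean of these RPE markers was 11.33 to 11.40 in the Mfrp rd6 arrays and 11.33 to 11.43 in the wild-type arrays (log2). Markers of surface epithelium read about as high, with a mean of 11.21 to 11.30 in Mfrp rd6 and 11.34 to 11.51 in wild type. The RPE level therefore does not show that the pellets were mainly RPE. The labels do not say whether the samples of a group are separate animals, or how many animals each holds, and the p-values here cover the spread between samples alone, which may be technical. The labels could not be checked on the mutated gene, because its 1 probe set also carries the symbol of the neighbouring gene C1qtnf5, and rd6 is known as a splice-site mutation. That probe set read 11.09 to 11.23 in Mfrp rd6 and 11.22 to 11.49 in wild type.

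Complement is a cascade of plasma and locally made proteins that tags surfaces with fragments of C3 and C4 and releases small fragments, the anaphylatoxins, that attract and activate myeloid cells. In the alternative pathway factor B joins C3b on a surface and is cut by factor D, which gives an enzyme that makes more C3b. Factor I stops this amplification by cutting C3b, and also C4b, when a cofactor such as Cd46 holds them. Cd55 takes the C3-cleaving enzymes apart, and the C1 inhibitor Serping1 blocks the proteases that start the classical and lectin pathways. C3ar1 and C5ar1 are the G-protein-coupled receptors of C3a and C5a. In the eye, the RPE and the membrane under it are known as a place where complement is deposited with age.

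Of the 7 measured genes, 2 rose in Mfrp rd6, the protease gene Cfi and the receptor gene C3ar1, and 0 fell (limma adjusted p under 0.05). Over all genes tested, 2.15% changed in either direction, 1.34% rose and 0.813% fell. At an unadjusted p under 0.05 the counts were also 2 and 0, while 1193 of all 19938 genes were higher and 1868 lower at that level. In the same 2 genes every Mfrp rd6 array lay above every wild-type array, as in 5.52% of all genes, and in 0 every Mfrp rd6 array lay below, as in 9.82% of all genes. In the other 5 genes the groups overlapped. The median change of the 7 genes was 0.01, against -0.02 over all genes. The values were deposited by the authors as log2 signals after RMA, so a difference of 1 is a doubling of signal.

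**Figure D1:**
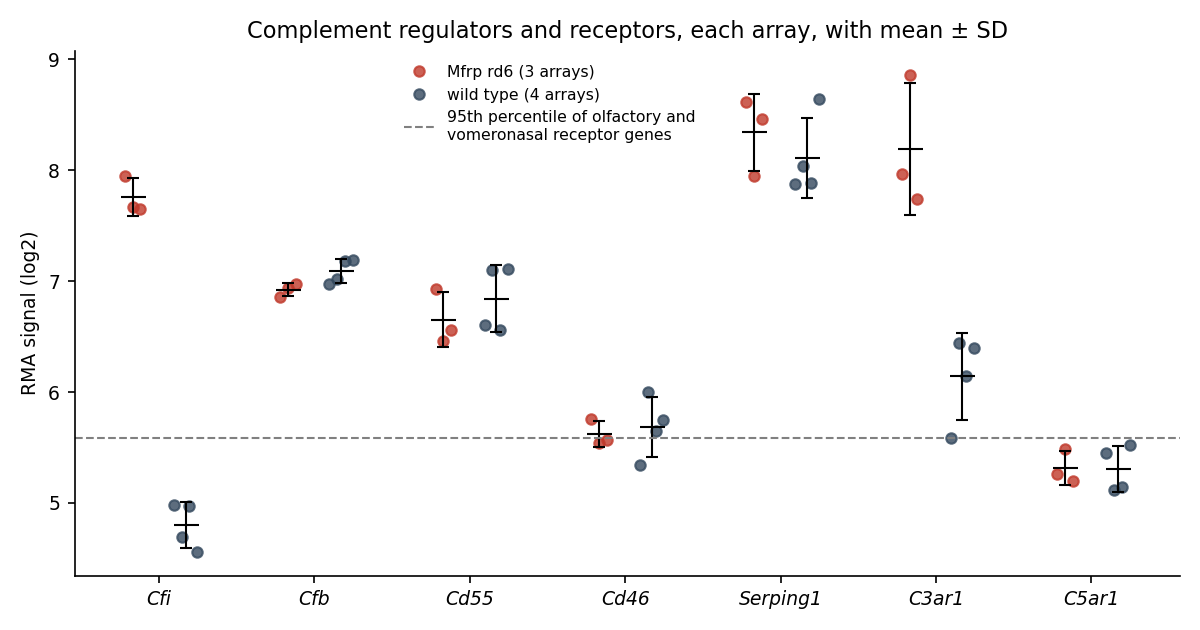
Signal of each measured gene (vertical axis, log2) in the Mfrp rd6 arrays (red, n = 3) and the wild-type arrays (dark, n = 4), with mean and SD as black bars. The dashed line at 5.59 is the 95th percentile of olfactory and vomeronasal receptor genes. The groups stand apart in Cfi and C3ar1 and overlap in the other 5 genes.

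Cfi, which encodes the protease factor I, rose 7.76-fold. Its signal (probe set 10496001) was 7.95, 7.67 and 7.65 in the Mfrp rd6 arrays, against 4.98, 4.69, 4.97 and 4.56 in the wild-type arrays. The lowest Mfrp rd6 array lay 2.67 above the highest wild-type array, and neither group spread over more than 0.42. The means were 7.76 ± 0.17 (SD, n = 3) in Mfrp rd6 and 4.80 ± 0.21 (SD, n = 4) in wild type, a log2 change of 2.96 (SE 0.12, 95% confidence interval 2.68 to 3.23, limma adjusted p = 4.36e-06).

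The wild-type level of Cfi was within the range of genes that RPE is not expected to use. The 1194 olfactory and vomeronasal receptor genes on the array had means of up to 5.59 at their 95th percentile, used here as a floor. All 4 wild-type arrays read below that floor for Cfi and all 3 Mfrp rd6 arrays above it. RMA compresses differences near the floor, so the fold of Cfi may be understated, and its size against an absent transcript is not known. Measured from the floor instead of the wild-type mean, the Mfrp rd6 mean was 2.17 higher (4.5-fold).

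Cfb encodes factor B, which carries the protease of the C3-cleaving enzyme of the alternative pathway that factor I restrains. It read 6.86, 6.94 and 6.97 in the Mfrp rd6 arrays, against 6.97, 7.02, 7.18 and 7.19 in the wild-type arrays. The highest Mfrp rd6 array equalled the lowest wild-type array, and the other arrays did not cross. The change was -0.17 (SE 0.08, 95% confidence interval -0.34 to 0.01) and did not pass (limma adjusted p = 0.359). The interval allows at most a rise of 0.01.

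The 3 inhibitors had overlapping arrays. Cd55, which takes C3-cleaving enzymes apart on the cell's own surface, read 6.93, 6.46 and 6.56 in Mfrp rd6, against 6.60, 7.10, 6.56 and 7.11 in wild type. Each group held both low and high arrays, and the log2 change was -0.19, which did not pass (95% confidence interval -0.57 to 0.18, limma adjusted p = 0.659). Mice have a closely related neighbouring gene, Cd55b, and its part in this signal was not tested.

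Cd46, a cofactor for factor I whose protein in the mouse is known mainly from the testis, read 5.76, 5.54 and 5.57 in Mfrp rd6, against 5.34, 6.00, 5.65 and 5.75 in wild type. The Mfrp rd6 arrays lay inside the wild-type range, and 1 of 3 Mfrp rd6 arrays and 3 of 4 wild-type arrays were above the floor. The change was -0.06 (95% confidence interval -0.37 to 0.25, limma adjusted p = 0.889).

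Serping1, the C1 inhibitor, read 8.61, 7.95 and 8.46 in Mfrp rd6, against 7.87, 8.04, 7.88 and 8.64 in wild type. Its Mfrp rd6 arrays included 2 high values, and wild-type replicate 4 was as high as they were. The log2 change was 0.23, which did not pass (95% confidence interval -0.23 to 0.69, limma adjusted p = 0.669). With 1 array left out the change lay between 0.10 (without Mfrp rd6 replicate 1) and 0.43 (without Mfrp rd6 replicate 2) and passed in 0 of the 7 fits. Its interval is the widest of the 5 genes that did not pass.

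C3ar1, the C3a receptor of myeloid and other cells, read 7.96, 8.86 and 7.74 in the Mfrp rd6 arrays, against 5.59, 6.44, 6.14 and 6.40 in the wild-type arrays. Mfrp rd6 replicate 2 stood highest and wild-type replicate 1 lowest, and the gap between the groups was 1.30. The means were 8.19 ± 0.59 (SD, n = 3) in Mfrp rd6 and 6.14 ± 0.39 (SD, n = 4) in wild type, a 4.12-fold rise and a log2 change of 2.04 (SE 0.27, 95% confidence interval 1.43 to 2.66, limma adjusted p = 0.0053). C3ar1 spread more within each group than Cfi did, over 1.12 in Mfrp rd6 and 0.85 in wild type, against 0.30 and 0.42 for Cfi.

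C5ar1, the C5a receptor, read 5.26, 5.49 and 5.20 in Mfrp rd6, against 5.45, 5.12, 5.14 and 5.52 in wild type. No array of either group was above the floor, so a difference in C5ar1 would have been hard to detect with this probe set. The change was 0.01 (95% confidence interval -0.26 to 0.28, limma adjusted p = 0.986).

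Within each array the log2 signal of C3ar1 minus that of C5ar1 was 2.70, 3.37 and 2.54 in Mfrp rd6, against 0.14, 1.32, 1.00 and 0.88 in wild type. All 3 Mfrp rd6 arrays exceeded all 4 wild-type arrays, with a difference between the groups of 2.03. Since C5ar1 was not above the floor in any array, this difference restates that of C3ar1 (2.04) and does not show how the receptors compare.

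The upstream windows of both receptor genes are shown because C3ar1 rose and C5ar1 did not pass. C5ar1 was not above the floor in any array, so a difference in response between these genes is not established. Each window holds the 250 bases before the annotated start, written 5′ to 3′ on the gene's own strand, from RefSeq on build GRCm38.p6. That of C3ar1 lies at chr6:122856158-122856407 and that of C5ar1 at chr7:16259339-16259588, both on the minus strand. Matches to the motifs named below would stand in capitals.
C3ar1: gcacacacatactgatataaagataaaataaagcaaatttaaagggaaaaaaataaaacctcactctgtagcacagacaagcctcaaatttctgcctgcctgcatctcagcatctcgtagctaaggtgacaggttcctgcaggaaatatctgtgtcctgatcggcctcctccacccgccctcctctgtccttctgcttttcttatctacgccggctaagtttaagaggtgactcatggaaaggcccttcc
C5ar1: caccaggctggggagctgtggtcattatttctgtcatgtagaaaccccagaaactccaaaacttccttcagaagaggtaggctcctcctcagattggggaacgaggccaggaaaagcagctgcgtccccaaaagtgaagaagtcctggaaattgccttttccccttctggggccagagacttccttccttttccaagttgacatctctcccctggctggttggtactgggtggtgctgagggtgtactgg
Neither window held, on either strand, the PU.1 core GAGGAA, the STAT site TTCNNNGAA, the E-box CACGTG, the M-box core CATGTG or the NF-kB form GGGNNTTCC. Of the 32851 promoter windows of this length in the table, 23.3%, 7.02%, 6.02%, 12.3% and 4.98% held these motifs, in the same order. The absence says only that these letters are not in these windows.

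Around the regulators, other genes of the complement system rose in part. Of 45 measured genes of a list of 49, 7 rose and 0 fell (limma adjusted p under 0.05; 15 and 1 at an unadjusted p under 0.05), and the adjusted calls are 15.6% of the list against 2.15% of all genes. At the unadjusted level 1193 of all 19938 genes were higher and 1868 lower. Their median change was 0.04, against -0.02 over all genes. The 7 were C4b (3.16), C1qc (3.11), C1qb (3.09), C1qa (2.90), C4a (1.50), Itgb2 (1.08) and C1ra (0.77). C1q is the recognition molecule of the classical pathway, C1ra encodes a protease bound to it, and C4b encodes the component that this protease complex cuts. Itgb2 is the shared beta chain of the complement receptors for cut C3b. The partner chains of Itgb2 did not pass, with -0.12 for Itgam and 0.50 for Itgax (limma adjusted p = 0.498 and 0.0632). C4a and C4b are near-identical paralogues, so the split between them is uncertain. For C4a, all 3 Mfrp rd6 arrays but only 1 of 4 wild-type arrays were above the floor, so the size of its rise is uncertain.

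Of the other complement genes that did not pass, some are named here. All but C2, Cpn1, C1s1 and Cd93 were chosen after their values were seen. Properdin (Cfp), which steadies the alternative-pathway enzyme, differed by 0.10, and Cr1l, the rodent membrane cofactor for factor I, by 0.02. Cd59a, which blocks pore formation, differed by 0.06, and C5ar2, the other C5a receptor, by 0.06. C2, the classical-pathway counterpart of factor B, read 8.05, 7.75 and 8.00 in Mfrp rd6, against 7.53, 7.77, 7.54 and 7.60 in wild type (0.32, limma adjusted p = 0.139). Cpn1, the catalytic chain of the carboxypeptidase that inactivates anaphylatoxins, read 7.12, 7.08 and 6.64 in Mfrp rd6, against 6.42, 6.16, 6.55 and 5.96 in wild type. The Cpn1 groups did not overlap, but the change of 0.67 did not pass (limma adjusted p = 0.0687). C1s1, the other protease of the C1 complex, differed by 0.43 (limma adjusted p = 0.0759), but no array was above the floor for it. Cd93, a receptor of endothelial and myeloid cells, differed by 0.50 (limma adjusted p = 0.131). The terminal components named here did not pass, with 0.02 for Hc, 0.01 for C6, -0.13 for C7 and 0.03 for C9. All 4 were below the floor in every array, so these values say little about their transcripts.

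**Figure D2:**
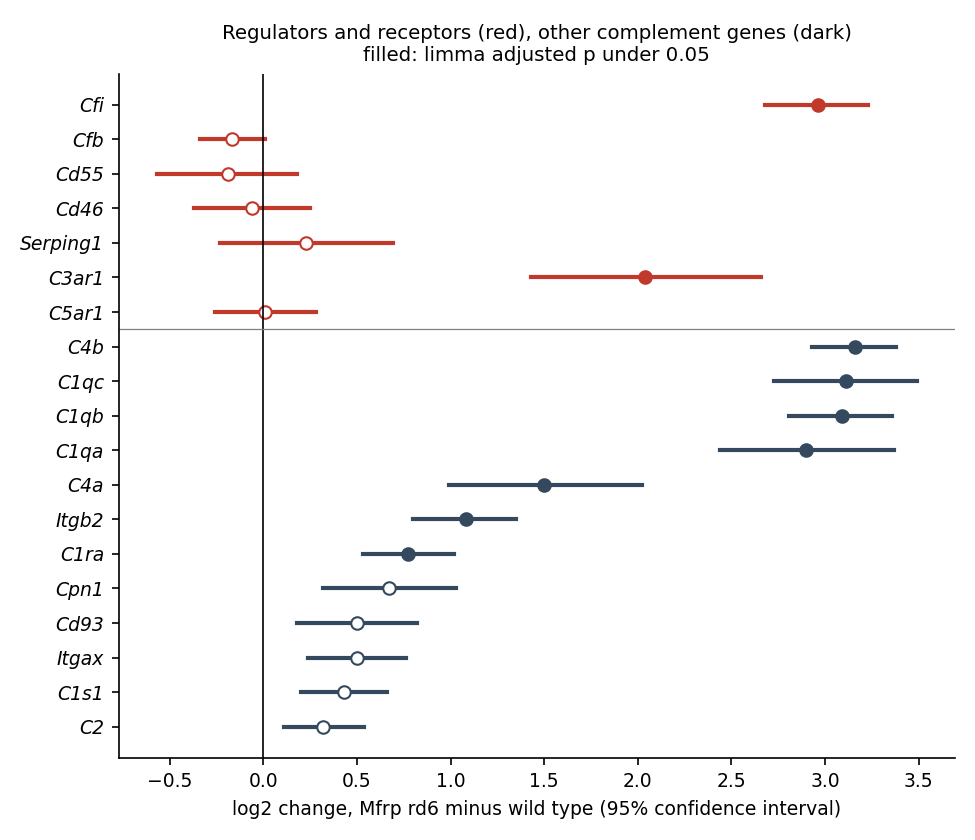
Log2 change, Mfrp rd6 minus wild type (horizontal axis), with its 95% confidence interval for the 7 regulators and receptors (red) and for 12 other complement genes (dark), where filled points passed the limma test. Cfi at 2.96 lies in the range of C4b and the C1q chains (2.90 to 3.16), C3ar1 at 2.04 lies between them and C4a, and the other 5 red intervals include 0.

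Markers of microglia and macrophages moved with both risers. Of 20 measured markers 14 rose and 0 fell, where 1.34% of all genes rose and 0.813% fell. In 17 of 20 all Mfrp rd6 arrays lay above all wild-type arrays, as in 5.52% of all genes. The median change was 1.31, against -0.02 over all genes. The mean of the list was 8.21, 8.63 and 8.11 in the Mfrp rd6 arrays, against 6.77, 6.78, 6.85 and 6.77 in the wild-type arrays. The largest rises were those of Ly86 (3.41) and Tyrobp (3.18), and Tmem119, P2ry12 and Cx3cr1, known from resident microglia and chosen here after their values were seen, rose by 1.27, 1.20 and 1.34. The lowest values were -0.17 for Mrc1 and -0.12 for Itgam, which did not pass. Siglech (0.19), Gpr34 (0.39), Csf1r (0.40) and Ptprc (0.52) also did not pass. Mrc1 and Gpr34 were below the floor in every array. Of the 20 markers, 17 had a mean above the floor.

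The order of the Mfrp rd6 arrays differed between the risers. C3ar1 ran in the order of the marker mean, highest in replicate 2, then 1, then 3. Cfi was highest in replicate 1 and nearly equal in replicates 2 and 3, while the marker mean was 8.63 in replicate 2 and 8.11 in replicate 3. Relative to the marker mean, Cfi stood at -0.26, -0.96 and -0.46 in Mfrp rd6, against -1.79, -2.09, -1.88 and -2.21 in wild type, where Cfi itself was below the floor, so that the step between the groups has no firm size. C3ar1 relative to the same mean stood at -0.25, 0.23 and -0.37 in Mfrp rd6, against -1.18, -0.34, -0.71 and -0.37 in wild type, where the groups overlapped.

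**Figure D3:**
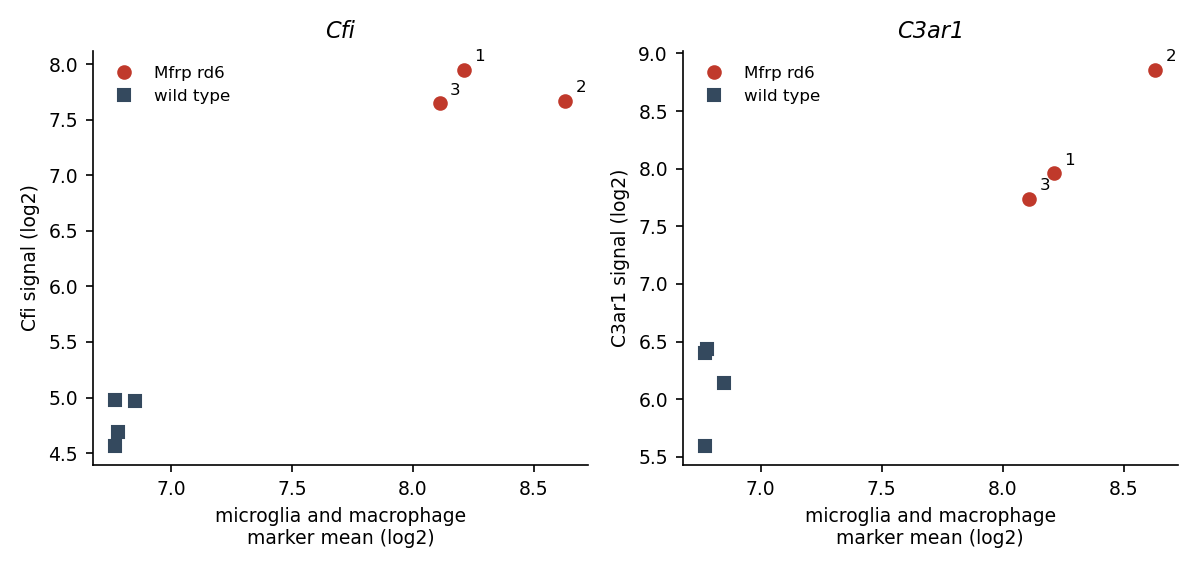
Signal of Cfi (left) and C3ar1 (right) against the mean of 20 microglia and macrophage markers in the same array (both axes log2), for Mfrp rd6 (red circles, numbered by replicate) and wild type (dark squares). The wild-type arrays lie between 6.77 and 6.85 on the horizontal axis, and among the Mfrp rd6 arrays replicate 2 is highest for C3ar1 (8.86) but not for Cfi (7.67).

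With the marker mean as a covariate in limma, Cfi differed by 3.08 (95% confidence interval 1.59 to 4.58, unadjusted p = 0.00128, adjusted p = 0.69) and C3ar1 by -1.14 (95% confidence interval -3.32 to 1.05, adjusted p = 1). Neither passed in that fit, and nor did any of the 19938 genes, of which 956 had an unadjusted p under 0.05. The marker mean is itself almost a copy of the genotype, which leaves wide intervals, and whether the covariate acts differently on the 2 genes was not tested.

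Skeletal muscle markers also moved with the groups. Of 10 such markers 2 rose and 0 fell (Pvalb by 2.18 and Myh4 by 1.84), where 1.34% of all genes rose and 0.813% fell. All 10 were higher in Mfrp rd6 at an unadjusted p under 0.05, as were 1193 of all 19938 genes. The list mean was 8.63, 8.90 and 8.02 in Mfrp rd6, against 6.78, 6.95, 7.98 and 7.04 in wild type, so wild-type replicate 3 reached almost the lowest Mfrp rd6 array. With that mean as a covariate Cfi still passed (2.79, limma adjusted p = 0.00526) and C3ar1 did not (1.45, limma adjusted p = 0.465). With both wild-type replicate 3 and Mfrp rd6 replicate 2 left out, the change was 3.06 for Cfi (limma adjusted p = 0.000124) and 1.71 for C3ar1 (limma adjusted p = 0.0226).

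Counts for the other cell types that could be in the pellet stand beside 1.34% of all genes that rose and 0.813% that fell. At an unadjusted p under 0.05, 1193 of all 19938 genes were higher and 1868 lower. Of 10 neutrophil markers 2 rose and 1 fell, with Csf3r at 1.30 and Ltf at -0.78, and 1 of 5 T cell markers rose (Cd3e, 0.43). Of 8 endothelial markers 2 rose, Plvap by 0.57 and Tek by 0.55, all 8 had a positive change and 7 were higher at an unadjusted p under 0.05. The endothelial mean was 7.26 to 7.66 in Mfrp rd6 and 6.64 to 7.14 in wild type. Of 8 fibroblast markers 1 fell (Dcn, -0.92) and 5 were lower at an unadjusted p under 0.05, and of 12 RPE markers 1 fell (Lrat, -0.40). In limma, 0 markers passed among 8 of adipocytes, 8 of rods, 7 of Mueller glia and astrocytes and 7 of surface epithelium. At an unadjusted p under 0.05 the adipocyte list had 0 higher and 0 lower and the rod list 0 and 2. The glial list had 2 and 0 and the surface epithelium list 0 and 1. All 8 rod markers had a negative change, with a median of -0.53. The rod mean was 6.80 to 7.19 in Mfrp rd6 and 6.99 to 8.17 in wild type. The brightest members of the lists in which 0 markers passed were Lipe (-0.06), Gnat1 (-0.67), Apoe (0.16) and Krt5 (0.01). The part of these cells in the changes of Cfi and C3ar1 was not tested.

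Among 195 genes with an SD of at least 0.5 over the 7 arrays, those with a pattern most like Cfi were Cd5l (Pearson r = 0.997), A2m (0.995), Cd53 (0.994), Pld4 (0.993) and Gnb3 (0.992). Those most like C3ar1 were Olfml3 (r = 0.992), Nckap1l (0.991), Lcp2 (0.990), Cd68 (0.988) and Lgals9 (0.987). These values describe 7 arrays that share their groups, and most of each r is the step between the groups. Over deviations from the group means, r was 0.40 to 0.83 for the genes set beside Cfi, lowest for Pld4 and highest for Cd5l. It was 0.91 to 0.96 for the genes set beside C3ar1. Each set held a gene of the microglia and macrophage list, Cd53 beside Cfi (0.54) and Cd68 beside C3ar1 (0.95).

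Both rises passed when the older sample of the growth protocol was left out. Without Mfrp rd6 replicate 1, the fit in which both groups were 8 weeks old under the growth protocol, Cfi rose by 2.86 (limma adjusted p = 3.01e-05) and C3ar1 by 2.16 (limma adjusted p = 0.0165). Under the age field the ages still differ in that fit. Over all 18 alternatives Cfi stayed between 2.79 and 3.08 and passed in 17, while C3ar1 passed in 16 and lay between 1.45 and 2.27 in all but the fit with the microglia and macrophage covariate.

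**Figure D4:**
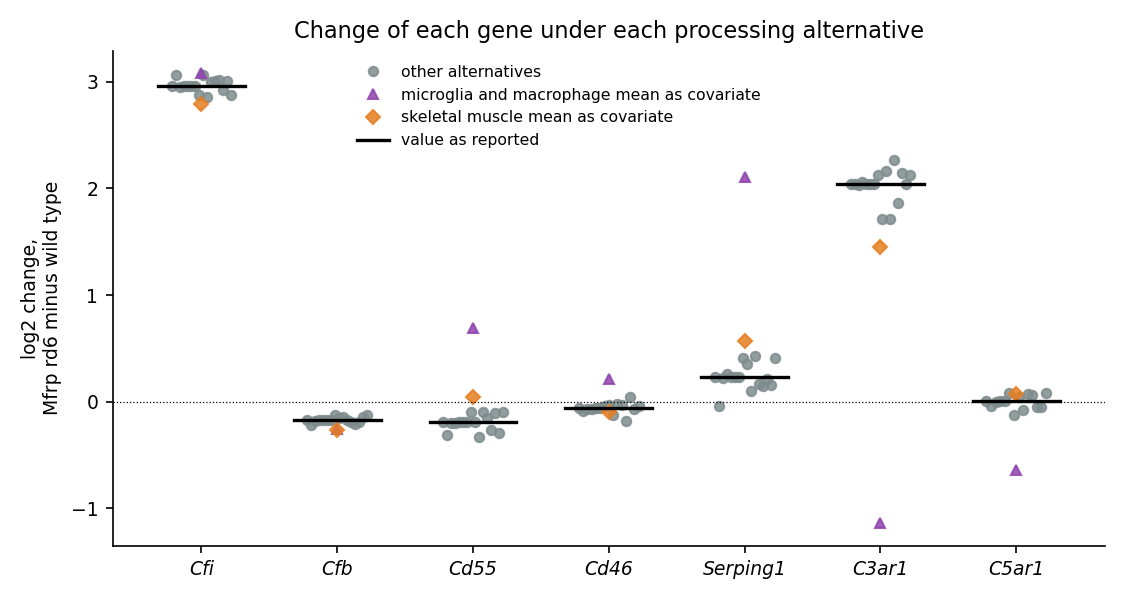
Log2 change of each gene, Mfrp rd6 minus wild type (vertical axis), as reported (black line) and under each alternative (points; purple triangles and orange diamonds mark the 2 marker covariates). Cfi stays between 2.79 and 3.08, whereas C3ar1 moves to 1.45 and -1.14 with the covariates and Serping1 to 2.11 with the microglia and macrophage covariate.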

How the data were processed

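The data are log2 signals of probe sets on 7 arrays, deposited by the authors, who used Affymetrix Expression Console and RMA per the submitters' processing notes. No version is stated. RMA corrects background, equalises the probe distributions of the arrays and summarises probes, and it compresses changes of dim probe sets. Array medians lay between 6.52 and 6.58.

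Names came from the platform's annotation, and of 35556 probe sets 21789 had 1 symbol, 1621 several and 12146 none. The probe set with the highest mean was kept per gene. Each of the 7 genes had 1 probe set. All 7 arrays were fitted with limma 3.58.1 (R 4.3.3), taking wild type from Mfrp rd6, with Benjamini-Hochberg adjustment over 19938 genes and a threshold of 0.05. The procedure was tested on simulated data. The planned ratio of Cfi to C3 was not computed, since C3 was not analysed here. Python 3.11.15 and matplotlib 3.10.9 drew the figures.

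The genes, gene lists and tests were chosen with earlier results of these data known. Named were the listed genes, from the other complement genes all that passed and the 5 largest changes that did not, the 5 genes most like Cfi and C3ar1, and from each marker list the 2 largest changes that passed or, with none, the brightest gene. Further genes, such as Itgam, the terminal components and Tmem119, were named after their values were seen. Alternatives changed moderation, array weights, normalization, filters on dim genes, probe set averaging, the replicate block, marker covariates and the arrays included. The number of arrays limits the precision.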

Additional observations from a re-analysis of the deposited data

Results flagged for a closer look

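Of 31 sets of 4 wild-type values screened for a lone high or low array, 2 stood out, and chance gives about 1 in 20. The mean of the microglia and macrophage markers had a gap of 0.841 of its wild-type range, with replicate 3 at 6.85 above the others at 6.77 to 6.78, though the whole range was narrow beside the Mfrp rd6 arrays at 8.11 to 8.63. Itgax, the alpha chain of a complement receptor, had a gap of 0.833 of its range, with replicate 4 at 6.10 below the others at 6.25 to 6.28. None of the 7 regulators and receptors stood out in this way.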

How the results depend on the processing

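Cfi passed in every alternative except that with the microglia and macrophage covariate, and C3ar1 in every one except those with either marker covariate. With the microglia and macrophage mean, 0 of the 7 genes passed (2 at an unadjusted p under 0.05), 0 other complement genes (4 unadjusted) and 0 genes in all by limma. The values in that fit were -1.14 for C3ar1, -0.64 for C5ar1, 0.21 for Cd46 and 0.69 for Cd55. With the skeletal muscle mean, 1 of the 7, 3 other complement genes and 47 genes in all passed, and Cd55 read 0.04. Changed genes numbered 718 with trend and robust moderation, 679 with array weights, 225 with the replicate block, 193 with both wild-type replicate 3 and Mfrp rd6 replicate 2 left out, and 211 to 325 when 1 array was left out. Small uncalled values changed sign: C5ar1 was -0.04 with array weights, -0.002 with median centring, -0.13 without the 2 arrays together and -0.08 to 0.08 with 1 array left out. Cd46 was -0.18 to 0.04 with 1 array left out, and Serping1 was -0.04 with array weights. The C3ar1 to C5ar1 ratio was 1.78 to 2.20 with 1 array left out, 1.84 without the 2 arrays together and 2.05 over pairs of equal replicate number, designs in which the exact test cannot pass. Arrays of equal replicate number showed no positive likeness beyond 0.036 (correlations of deviations -0.303, -0.073 and 0.036). With so few arrays these values cannot show whether samples were handled in pairs. The block changed no call among the 7 genes. The planned ratio of Cfi to C3 was not run. C5ar1 fell below both dim-gene filters and Cd46 below 1. Probe sets near the floor, C5ar1 and Cd46 here, limit what can be detected.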
